A study of Homo sapiens with 4 samples.

Results

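The genes described here encode the inhibitor of DNA binding (ID) proteins ID1, ID2 and ID3 and the factors that work with or around them in blood cells, namely the E proteins TCF3, TCF4 and TCF12, the haematopoietic factors TAL1 and LYL1, and the adaptors LMO2 and LDB1. They are 10 genes chosen by symbol out of 61498 in the tables, and each symbol belonged to a single gene identifier. Poly(A) RNA was sequenced from K562, an established human erythroleukaemia line kept in culture, which hemin, an iron-containing porphyrin, pushes toward the erythroid state. The untreated condition comprised 2 libraries of cells that received no agent, and the hemin condition comprised 2 libraries of the same line after 108 h in 50 µM hemin. Nothing in the labels says that the libraries of a condition came from separate cultures. Each p-value therefore weighs a difference against the spread between these libraries, which may be technical. Count-based tests also draw part of that spread from other genes. No vehicle-treated or intermediate time point was analysed here.

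Proteins of the basic helix-loop-helix class bind DNA as pairs, and the basic stretch of each partner touches the E-box. The E proteins are made in most tissues and pair with tissue-restricted partners such as TAL1 and LYL1. In erythroid cells an E protein paired with TAL1 is joined through LMO2 and LDB1 to GATA1, and single-stranded DNA-binding proteins of the SSBP family stabilise LDB1. ID proteins keep the helix-loop-helix but lack the basic stretch, so an E protein paired with an ID protein does not bind DNA.

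The libraries summed to between 7455447 and 8241534 expected counts, and libraries of the same condition were not identical within counting error. The marker genes of the erythroid line, among them GATA1 and the fetal and embryonic globins, summed to 5480 and 5706 TPM, transcript numbers on RSEM's length-corrected scale, in untreated cells and to 7028 and 6572 TPM after hemin. The lymphoid markers summed to 2.63 and 3.04 TPM before and to 1.75 and 0.54 TPM after, and the part of such cells in the results was not tested. The lists for lymphoid, monocyte, megakaryocyte and fibroblast cells each stayed under 7 TPM in sum in every library, with 3 of 5 megakaryocyte markers (PF4, PPBP and GP9) and 2 of 5 lymphoid markers (CD3E and MS4A1) at 0 counts throughout.

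The stretches before the starts of the ID genes that decreased are shown first, and both genes have a single start in the RefSeq table. The letters come from RefSeq on GRCh38.p14, written 5′ to 3′ on the strand of the gene. Capitals mark every match, on either strand, to the E-box CANNTG, the GATA motif, the SMAD-bound letters GTCTG, the GC-rich SMAD element GGCGCC, the cyclic AMP element core TGACG or the TATA box TATAAA. Adjoining or overlapping matches run together, so CGTCAGAC in ID3 joins a TGACG match and a GTCTG match read from the other strand. TTTATAAA in ID1 joins a TATAAA match on each strand. The ID3 stretch is the 250 bases before its start on the minus strand, chr1:23559502-23559751, and no annotated exon of ID3 lies in it. The ID1 stretch is 244 bases on the plus strand, chr20:31605039-31605282, and it stops just before the first annotated base of ID1. Its 5′ part also lies in an annotated long non-coding RNA gene of the opposite strand, ENSG00000289875.
ID3: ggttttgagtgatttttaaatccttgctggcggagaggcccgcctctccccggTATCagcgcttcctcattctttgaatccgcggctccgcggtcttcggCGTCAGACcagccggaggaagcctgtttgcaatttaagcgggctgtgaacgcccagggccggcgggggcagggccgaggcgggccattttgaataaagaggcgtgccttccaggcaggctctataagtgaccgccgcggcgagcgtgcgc
ID1: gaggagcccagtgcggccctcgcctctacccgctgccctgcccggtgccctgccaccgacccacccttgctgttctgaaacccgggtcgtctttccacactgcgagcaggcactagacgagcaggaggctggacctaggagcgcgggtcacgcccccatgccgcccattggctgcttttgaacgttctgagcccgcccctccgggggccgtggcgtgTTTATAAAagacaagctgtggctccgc

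Neither stretch held an E-box, a motif found in 61.8% of the 35116 RefSeq promoters over the 250 bases before the start. The ID3 stretch held a GATA match (in 45.6% of all promoters), a GTCTG match (38.0%) and a TGACG match (21.2%), whereas the ID1 stretch held none of these. TATAAA was present in the ID1 stretch, 31 bases before the RefSeq start, and in 10.7% of all promoters. That start lies downstream of the end of the printed ID1 stretch. GGCGCC, held by 16.4% of all promoters, was in neither. A match of letters is no proof of a bound site. Of the 10 genes, 9 had a promoter in the table and LMO2 had none. TCF4 was listed with 10 starts, TCF12 with 5, TAL1 with 2, and the other 6 genes with 1 each.

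Hemin downregulated ID3 and ID1, upregulated LMO2 modestly and LYL1 weakly, and left the other genes without a change that passed the test. The LYL1 call did not hold with DESeq2 (adjusted p = 0.129). All 10 genes passed the filter on low counts. Of them, 2 were called higher and 2 lower by the quasi-likelihood test of edgeR, with p-values adjusted by the Benjamini-Hochberg method over all 14458 genes tested and a threshold of 0.05. Over all genes tested 7.00% were called higher and 7.14% lower, so that 49.5% of the calls were increases (34.9% when counts were scaled by library size only). The hemin libraries did not overlap the untreated libraries on scaled counts for 8 of the 10 genes, with 5 above and 3 below, against 57.3% of all genes tested. The median log2 fold change of the 10 genes was 0.04, and that of all genes tested was -0.005. In these bulk libraries, fewer cells expressing a gene and less RNA per cell cannot be told apart.

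**Figure D1:**
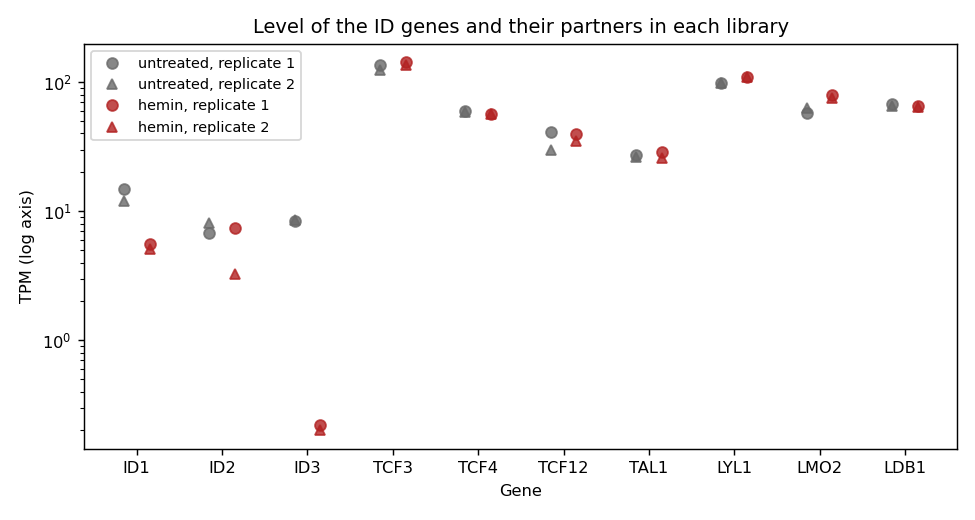
Level of each of the 10 genes in TPM on a log axis, with 1 symbol per library (circles for replicate 1, triangles for replicate 2; grey for untreated, red for hemin). ID3 went from 8.35 and 8.61 TPM to 0.22 and 0.20 TPM, while TCF3, the most abundant, lay between 124 and 142 TPM in all 4 libraries.

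**Figure D2:**
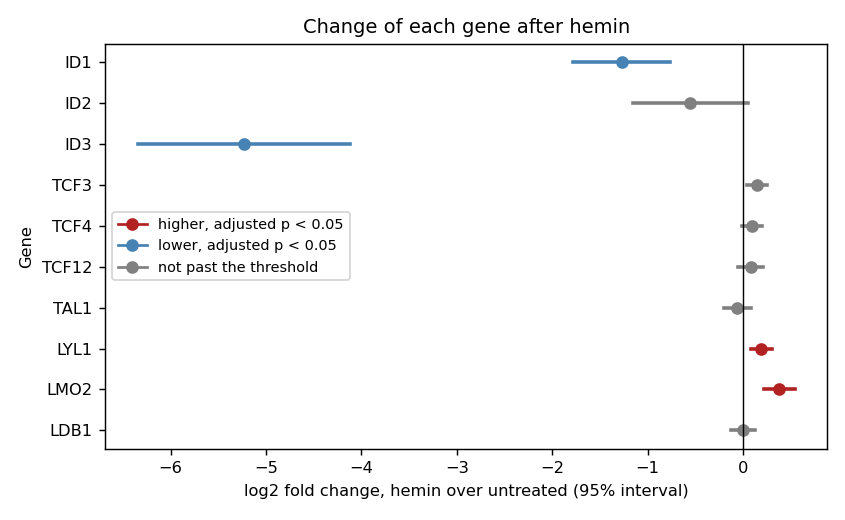
Fitted log2 fold change of hemin over untreated for each gene, with its 95% interval as a bar (edgeR, 2 libraries per condition). The intervals of ID1 and ID3 lie below 0, those of LYL1 and LMO2 lie above 0 and are the red ones, and the grey ones belong to the 6 genes whose adjusted p did not pass the threshold.

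ID proteins were the members with the lowest levels. ID1 (ENSG00000125968, chr20:31605283-31606515, plus strand) is the family member most often described as a direct target of bone morphogenetic protein signalling through SMAD factors. It was measured at 14.91 and 11.89 TPM in the untreated libraries and at 5.57 and 5.09 TPM in the hemin libraries. Both hemin libraries lay below both untreated libraries, and RSEM's 95% credibility intervals of the TPM ran from 8.22 to 16.5 in untreated cells and from 3.14 to 7.10 after hemin, without overlap. The log2 fold change of the counts was -1.27, with a 95% interval from -1.78 to -0.77 (edgeR adjusted p = 0.0070). Without untreated replicate 1 the log2 fold change was -1.12 and the adjusted p 0.0515 by the same test.

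ID3 (ENSG00000117318, chr1:23557926-23559501, minus strand) encodes a close relative of ID1. RSEM's 95% credibility intervals ran from 5.86 to 11.0 TPM over the untreated libraries and from 0.13 to 1.72 TPM over the hemin libraries. DESeq2 gave a log2 fold change of -5.39 and set the gene aside from adjustment at its defaults, while with its filtering set for 0.05 the DESeq2 adjusted p was 1.5e-04. A single count stood behind each hemin value of 0.22 and 0.20 TPM, and RSEM's posterior means were 0.86 and 0.79 TPM. The treated level is therefore known only within bounds, whose upper ends were 1.72 and 1.58 TPM. ID3 had a log2 fold change of -5.23 with a 95% interval from -6.35 to -4.12 (edgeR adjusted p = 3.9e-04). The ratio of pooled counts, untreated over hemin, was 42.2, with a counting interval from 11.3 to 354. The smallest decrease allowed by that interval still exceeds the largest allowed for ID1, whose pooled ratio of 2.43 had a counting interval from 1.78 to 3.36. These intervals cover counting error only.

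ID2 (ENSG00000115738, chr2:8678845-8684461, plus strand), the family member that also binds proteins of the retinoblastoma family, was measured at 6.82 and 8.10 TPM in untreated cells and at 7.37 and 3.23 TPM after hemin. The conditions overlapped on the TPM scale, but not as scaled counts, which were 4.80 and 5.07 CPM (counts scaled by library size and TMM factor) in untreated cells and 3.78 and 2.98 CPM after hemin. The mean transcript length that RSEM assigned to ID2 was 752 bases in hemin replicate 1 and 1299 bases in hemin replicate 2, against 1041 and 916 bases in the untreated libraries. The log2 fold change of the counts was -0.55, and its 95% interval from -1.16 to 0.06 included both no change and a decrease of the size fitted for SMAD6 or TMOD1 (edgeR adjusted p = 0.212). ID2-AS1, a long non-coding RNA of the opposite strand, overlaps ID2 over 3020 bases and was read by 10, 5, 5 and 4 counts. The counting is not stated to use the strand, so reads from the shared part cannot be told apart. ID4, the last of the family, had no count in any library, which allows up to 3 counts in each.

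With ID3 nearly absent, the makeup of the ID pool differed between the conditions. ID3 held 27.8% and 30.1% of the summed ID TPM in the untreated libraries and 1.67% and 2.35% in the hemin libraries. ID1 held 49.6% and 41.6% before and 42.3% and 59.7% after, and ID2 held 22.7% and 28.3% before and 56.0% and 37.9% after. The shares of ID1 overlapped between the conditions, and those of ID2 were higher in both hemin libraries. In these shares the hemin libraries differed from each other by more than the untreated ones did. By counts ID2 did not rise, with 38 and 38 before and 28 and 24 after. Its hemin TPM also rest on assigned lengths of 752 and 1299 bases. Each hemin share of ID3 rests on a single count. By RSEM's posterior mean, ID3 was 8.33 of 29.4 and 8.47 of 27.9 TPM before. After hemin it was 0.86 of 13.2 and 0.79 of 10.5 TPM, larger shares than those by the TPM.

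The E proteins carried many more transcripts than the ID genes, and none of the 3 passed the test in edgeR or in DESeq2. At an unadjusted p under 0.05 in edgeR, 1 was higher, against 2133 of all 14458 genes tested. TCF3 (ENSG00000071564, chr19:1609291-1652615, minus strand), which encodes E12 and E47, was measured at 136 and 124 TPM in untreated cells and at 142 and 135 TPM after hemin. TCF3 was the most abundant of the 10 genes in both conditions, and its TPM ranges overlapped. As counts it was slightly higher, with a log2 fold change of 0.15 and a 95% interval from 0.04 to 0.25 that did not pass after adjustment (edgeR adjusted p = 0.0681). It passed with no filter on low counts, where the log2 fold change was 0.16 (edgeR adjusted p = 0.0440), and with RSEM's posterior mean counts (edgeR adjusted p = 0.0437).

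TCF4 (ENSG00000196628, chr18:55222185-55664787, minus strand) encodes E2-2 and had the most annotated transcripts of the 10 genes, 93. It was measured at 59.7 and 58.3 TPM in untreated cells and at 56.4 and 56.5 TPM after hemin, lower in both hemin libraries, whereas its scaled counts of 161 and 157 CPM before and 166 and 174 CPM after were higher in both. The direction depended on the scale, with a log2 fold change of 0.10 on counts (95% interval from -0.009 to 0.20, edgeR adjusted p = 0.208) and of -0.06 on log2(TPM + 1). RSEM's mean transcript length was 3837 and 3778 bases in the untreated libraries and 4082 and 4240 bases in the hemin libraries. In every library the TPM of TCF4 lay below its own credibility interval, while RSEM's posterior mean TPM was 84.7 and 82.0 in untreated cells and 81.1 and 87.4 after hemin. Its place among the other genes is therefore uncertain, since the posterior mean would put it above LDB1 in every library.

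TCF12 (ENSG00000140262, chr15:56918623-57299281, plus strand), which encodes HEB, was measured at 41.2 and 29.7 TPM in untreated cells and at 39.8 and 34.7 TPM after hemin. Both hemin libraries lay within the untreated range on the TPM scale. Its scaled counts, 83.2 and 79.6 CPM before and 87.4 and 84.8 CPM after, were higher in both hemin libraries. As counts, TCF12 had a log2 fold change of 0.08 with a 95% interval from -0.05 to 0.21 (edgeR adjusted p = 0.406). For the 3 E proteins the upper ends of these intervals were 0.25, 0.20 and 0.21, so an increase beyond that size in the log2 level was outside what the fit allowed for each.

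Summed over the family, the ID genes stood at 30.1 and 28.6 TPM in untreated cells and at 13.2 and 8.52 TPM after hemin. The E proteins stood at 237 and 212 TPM before and at 238 and 226 TPM after. The ratio of E protein to ID transcripts was 7.66 ± 0.325 in untreated cells and 22.3 ± 5.94 in hemin-treated cells (SD, n = 2 libraries each). The hemin ID sums include ID2 at 7.37 and 3.23 TPM, from 28 and 24 counts at assigned lengths of 752 and 1299 bases. Both hemin libraries, at 18.1 and 26.5, lay above both untreated libraries, at 7.89 and 7.43. An exact two-sided permutation test of the ratio gave p = 0.333, the smallest p that n = 2 against n = 2 allows, so this difference could not pass the threshold in any case. These are amounts of transcript, and protein was not measured. TCF3 supplied 57.4% to 59.7% of the E protein transcripts in the 4 libraries by the TPM and 48.6% to 51.0% by RSEM's posterior mean TPM. The ratio of E protein to ID transcripts by the posterior mean TPM was 8.98 and 8.77 in untreated cells and 20.15 and 24.98 after hemin.

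**Figure D3:**
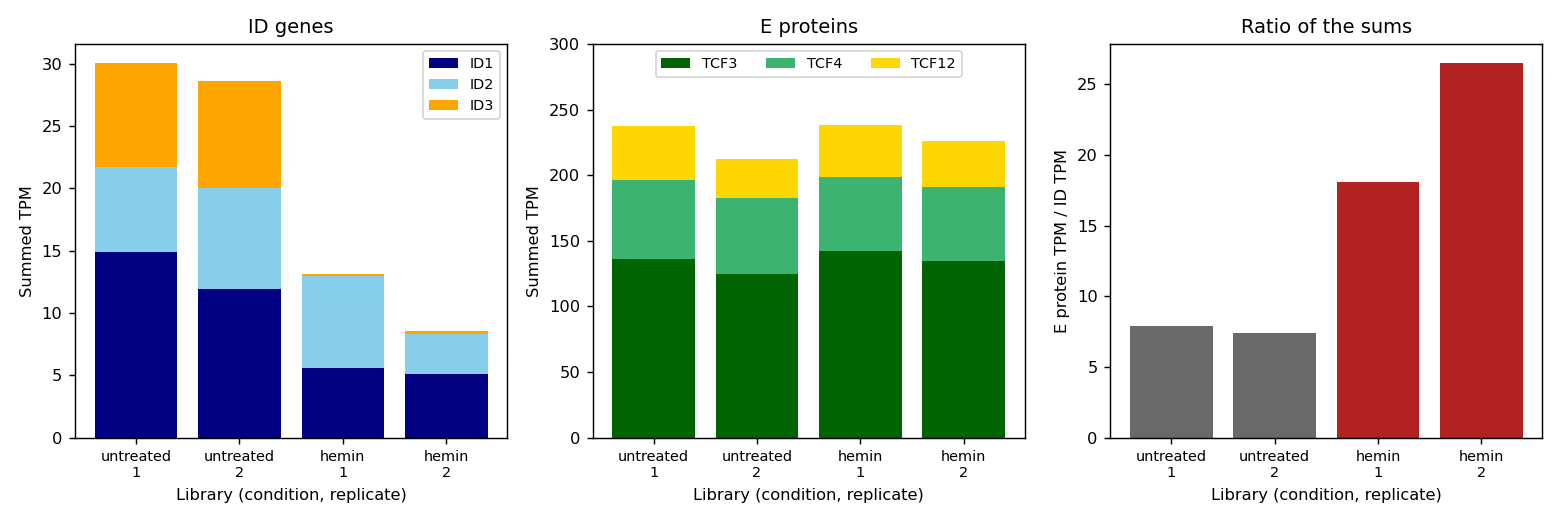
Summed TPM of the ID genes (left) and of the E proteins (middle), stacked by gene, and the ratio of these sums (right, grey for untreated and red for hemin) in each of the 4 libraries. The ratio was 7.89 and 7.43 in untreated cells and 18.1 and 26.5 after hemin, while the E protein sum stayed between 212 and 238 TPM.

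TAL1 (ENSG00000162367, chr1:47216290-47232225, minus strand), the partner of E proteins that is required for blood formation, was measured at 27.0 and 26.4 TPM in untreated cells and at 28.8 and 25.8 TPM after hemin. The conditions overlapped, and the untreated values lay between the hemin values. For TAL1 the log2 fold change was -0.06 on counts, with a 95% interval from -0.20 to 0.08 (edgeR adjusted p = 0.581), and 0.03 on log2(TPM + 1). A long non-coding RNA of the opposite strand, ENSG00000226252, lies in TAL1 and was read by 19.6 to 40.6 expected counts against 618 to 650 for TAL1.

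LYL1 (ENSG00000104903, chr19:13099033-13103161, minus strand) encodes a close relative of TAL1 that shares its partners. It was measured at 98.3 and 98.4 TPM in untreated cells and at 110 and 109 TPM after hemin. Both hemin libraries were higher and the libraries of a condition lay close together. Its log2 fold change was 0.19 (95% interval from 0.08 to 0.31, edgeR adjusted p = 0.0327), which is 1.14-fold. The call was lost under 11 of 15 alternatives, among them DESeq2 (adjusted p = 0.129), the replicate block (edgeR adjusted p = 0.0517) and the omission of any single library (edgeR adjusted p from 0.0768 to 0.134), although the direction stayed. The transcripts of LYL1 outnumbered those of TAL1 by a ratio of 3.64 and 3.73 in untreated cells and of 3.84 and 4.23 after hemin, on the TPM scale. RSEM's posterior mean TPM of LYL1 was lower, at 88.8 and 88.6 before and 99.4 and 99.4 after.

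Among the relatives in the TAL and LYL class, NHLH1, known from the developing nervous system, was downregulated, with 79 and 89 counts in untreated cells and 31 counts in each hemin library. Its log2 fold change was -1.44 (95% interval from -1.91 to -0.98, edgeR adjusted p = 0.0029). At 5.61 and 6.55 TPM before and 2.29 and 2.08 TPM after, it was scarce beside TAL1. TAL2 was read by 1 or 2 counts in each library and NHLH2 by none. Of the 5 genes in this class, 3 could be tested, of which 1 rose, 1 fell and 1 did not pass, against 7.00% higher and 7.14% lower over all genes tested.

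LMO2 (ENSG00000135363, chr11:33858576-33892076, minus strand), the adaptor that joins TAL1 to LDB1 and GATA1, was measured at 57.2 and 63.5 TPM in untreated cells and at 80.1 and 76.0 TPM after hemin. Both hemin libraries lay above both untreated libraries. The log2 fold change was 0.38 (95% interval from 0.22 to 0.54, edgeR adjusted p = 0.0097), or 1.3-fold, the largest among the 7 genes other than the ID genes. Without untreated replicate 1, in which LMO2 was lowest, the log2 fold change was 0.28 and the edgeR adjusted p 0.0579. A long non-coding RNA of the opposite strand, ENSG00000184566, lies in LMO2 and was read by 7 to 13 counts.

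LDB1 (ENSG00000198728, chr10:102106489-102120368, minus strand), whose product dimerises and can hold distant DNA elements together, was measured at 68.1 and 65.5 TPM in untreated cells and at 65.1 and 64.3 TPM after hemin. Its scaled counts overlapped between the conditions, at 125 and 117 CPM before and 123 and 119 CPM after. LDB1 had a log2 fold change of 0.002 with a 95% interval from -0.12 to 0.12 (edgeR adjusted p = 0.988). LMO2 stood below LDB1 in both untreated libraries, with TPM ratios of 0.84 and 0.97, and above it in both hemin libraries, with ratios of 1.23 and 1.18. An exact two-sided permutation test of that ratio gave p = 0.333, again the smallest p possible with n = 2 per condition.

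The other adaptors did not pass the test. SSBP3, SSBP4 and SSBP2, which bind LDB1, had log2 fold changes of 0.15, 0.14 and 0.18 (edgeR adjusted p = 0.0946, 0.118 and 0.535). Together they stood at 198 to 242 TPM with overlap between the conditions. LMO4, another LIM-only protein, was measured at 43.2 and 39.3 TPM in untreated cells and at 36.9 and 34.4 TPM after hemin, with a log2 fold change of -0.08 on counts (edgeR adjusted p = 0.598). LMO1 and LDB2 had no count in any library. In this list 7 of 9 genes were tested, and LMO2 was the 1 that rose. None fell, against 7.00% higher and 7.14% lower over all genes tested. At an unadjusted p under 0.05 in edgeR, 3 were higher and 0 lower, against 2133 and 2118 of all 14458 genes tested. DESeq2 called 1 higher and 0 lower, against 602 and 484 over all genes. The median log2 fold change of the list was 0.14, and that of all genes tested was -0.005.

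In order of their mean TPM, the untreated libraries had TCF3 at 130, LYL1 at 98.3, LDB1 at 66.8, LMO2 at 60.4, TCF4 at 59.0, TCF12 at 35.5, TAL1 at 26.7, ID1 at 13.4, ID3 at 8.48 and ID2 at 7.46. The ranges of LMO2 and TCF4 overlapped, and ID3 and ID2 differed by less than their credibility intervals. In the hemin libraries the order was TCF3 at 139, LYL1 at 110, LMO2 at 78.1, LDB1 at 64.7, TCF4 at 56.4, TCF12 at 37.2, TAL1 at 27.3, ID1 at 5.33, ID2 at 5.30 and ID3 at 0.21. Here ID1 lay within the range of ID2. LYL1 and LDB1 lay above, and TCF4 below, their own RSEM credibility interval in all 4 libraries, and TCF12 lay below its own in 3 of 4, so these levels carry an error beyond the spread between libraries.

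The plot of all tested genes sets these values beside the rest of the table. The central 95% of the log2 fold changes over all 14458 genes, whatever their level, ran from -0.96 to 0.66. ID1 and ID3 lay below that range and the other 8 genes lay within it.

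**Figure D4:**
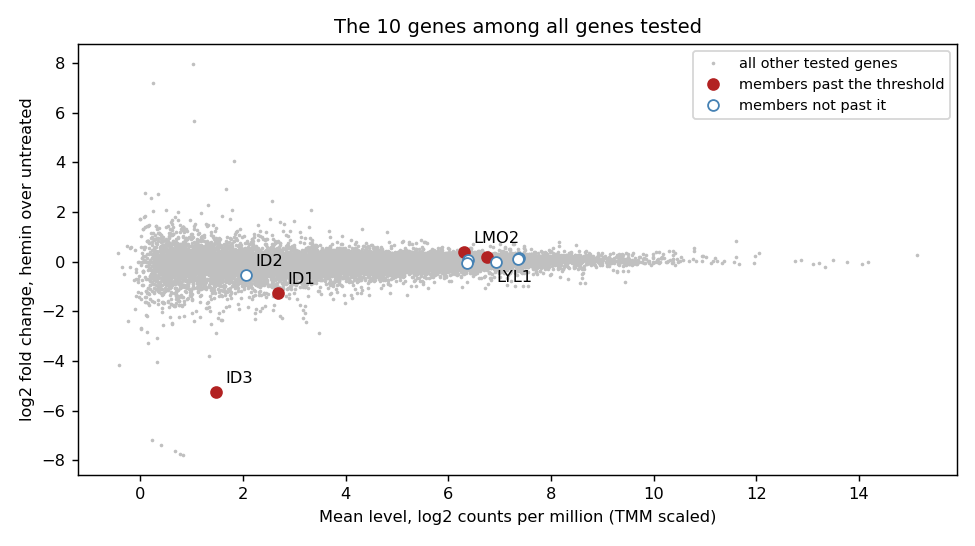
Fitted log2 fold change of hemin over untreated against mean level (log2 of TMM-scaled CPM) for the 14458 genes tested, with 1 grey point per gene. Filled red points are the 4 members that passed the test and open blue points are the 6 that did not. ID3 lies at -5.23 among genes of low abundance.

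The GATA factors that complete the DNA-bound complex did not pass the test. GATA1, the main erythroid GATA factor, was measured at 113 and 120 TPM in untreated cells and at 121 and 114 TPM after hemin, with a log2 fold change of 0.04 (95% interval from -0.08 to 0.16, edgeR adjusted p = 0.689). GATA2, its counterpart in progenitor cells, had a log2 fold change of -0.05 (95% interval from -0.16 to 0.07, edgeR adjusted p = 0.587). The TPM of the conditions overlapped for both genes.

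Other partners and cofactors of TAL1 included some that rose. Of 16 tested genes of this list 4 were higher and none was lower, against 7.00% and 7.14% of all genes tested. At an unadjusted p under 0.05 in edgeR, 6 were higher and 0 lower, against 2133 and 2118 of all 14458 genes tested. DESeq2 called 3 higher and 0 lower, against 602 and 484 over all genes. The median log2 fold change of the list was 0.08. RUNX1, a factor that occupies many sites together with TAL1, rose from 24.1 and 20.4 TPM to 29.7 and 27.5 TPM (log2 fold change 0.55, 95% interval from 0.41 to 0.70, edgeR adjusted p = 0.0010). CBFA2T3, also known as ETO2 and a corepressor bound through the E proteins, rose from 39.1 and 31.9 TPM to 46.5 and 48.0 TPM (log2 fold change 0.40, edgeR adjusted p = 0.0021). The acetyltransferase gene EP300 rose as well (log2 fold change 0.37, edgeR adjusted p = 0.0033), though its TPM in hemin replicate 1, 21.4, barely differed from the 21.4 and 21.0 TPM of untreated cells. Repressive and activating partners both appear among the genes that rose. FLI1 had no count in any library and ERG had a single count in 1.

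Of 13 tested erythroid genes known as targets of GATA1 and TAL1, 2 were higher (15.4%, against 7.00% of all genes tested) and 4 were lower (30.8%, against 7.14%), with a median log2 fold change of -0.08. ANK1, which encodes ankyrin of the membrane skeleton, rose from 41.2 and 36.7 TPM to 47.3 and 43.2 TPM (log2 fold change 0.27, edgeR adjusted p = 0.0056). DMTN, which encodes dematin of the same skeleton, fell (log2 fold change -0.74, edgeR adjusted p = 0.0092), although without untreated replicate 1 its adjusted p was 0.0627. TMOD1, a capping protein of actin, fell from 47.6 and 44.9 TPM to 30.7 and 33.9 TPM (log2 fold change -0.49, edgeR adjusted p = 0.0015). NFE2, a subunit of a globin gene activator, fell by 0.31 on the log2 scale (edgeR adjusted p = 0.0185), and it did not pass without untreated replicate 2 (0.106), without hemin replicate 2 (0.0540) or with DESeq2 (0.0655).

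The pathway that feeds ID1 and ID3 in many tissues is bone morphogenetic protein and its SMAD factors, and 15 of its genes were tested. Their median log2 fold change was -0.18. At an unadjusted p under 0.05 in edgeR, 1 was higher and 7 were lower, against 2133 and 2118 of all 14458 genes tested. DESeq2 called 0 higher and 0 lower, against 602 and 484 over all genes. By the adjusted edgeR test none was higher and 3 were lower, against 7.00% and 7.14% of all genes tested. They were SMAD6, an inhibitory SMAD (log2 fold change -0.49, edgeR adjusted p = 0.0492), the receptor gene ACVR1 (-0.46, edgeR adjusted p = 0.0191) and the ubiquitin ligase gene SMURF2 (-0.45, edgeR adjusted p = 0.0345). ACVR1 was measured at 13.7 and 12.7 TPM in untreated cells and at 8.61 and 10.2 TPM after hemin. The products of SMAD6 and SMURF2 restrain the pathway, and that of ACVR1 transmits it. None of the 3 calls held without untreated replicate 1 or without untreated replicate 2, where edgeR adjusted p-values ran from 0.0688 to 0.223, nor with DESeq2, where they ran from 0.141 to 0.222.

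Of the other helix-loop-helix genes, 99 of 101 symbols were found, 31 had no count in any library and 44 could be tested. Of the tested ones 4 were higher (9.09%, near the 7.00% of all genes tested) and 6 were lower (13.6%, against 7.14%), with a median log2 fold change of -0.11. MYC, a factor that pairs with MAX rather than with E proteins, rose from 239 and 234 TPM to 299 and 289 TPM (log2 fold change 0.38, edgeR adjusted p = 6.7e-04), and MGA, which also pairs with MAX, rose by 0.29 (edgeR adjusted p = 0.0047). TFAP4 rose by 0.36 (edgeR adjusted p = 0.0497), and this call was lost under 10 of 15 alternatives. HES7, a repressor of the Notch pathway, fell from 34 and 42 counts to 16 and 12 counts (log2 fold change -1.44, edgeR adjusted p = 0.0226). MLXIPL, which encodes the carbohydrate response factor ChREBP, fell from 21.8 and 20.2 TPM to 9.81 and 10.4 TPM (log2 fold change -0.76, edgeR adjusted p = 0.0053). TCFL5 had a log2 fold change of -0.62 (edgeR adjusted p = 0.0470). Without untreated replicate 2 or without hemin replicate 2, the calls of HES7 (edgeR adjusted p = 0.135 and 0.0767) and TCFL5 (edgeR adjusted p = 0.235 and 0.121) were lost. HES7 was also lost without untreated replicate 1 (edgeR adjusted p = 0.0535).

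**Figure D5:**
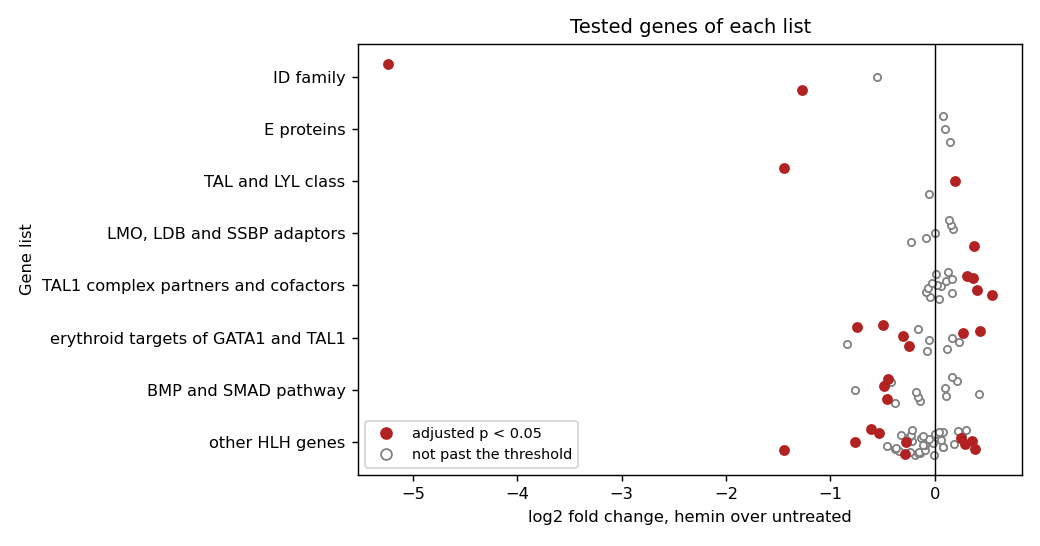
Fitted log2 fold change of hemin over untreated for each tested gene of the 8 gene lists, with 1 point per gene and no error bars. Filled red points passed an adjusted p of 0.05. The ID family is the list with the most negative value, ID3 at -5.23, and its 3 tested genes all lie below 0, while the 3 E proteins lie between 0.08 and 0.15.

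The genes most like ID3 were sought among 3008 tested genes with an untreated level within 2-fold of its own, by the nearest log2 fold change over the 4 libraries. IL2RA, the alpha chain of the interleukin-2 receptor, was nearest, with 35 and 38 counts in untreated cells and 1 and 4 counts after hemin (log2 fold change -3.81, edgeR adjusted p = 0.0016). It was followed by the pseudogene CNN2P12 (42 and 33 counts before, 7 and 3 after) and by ENSG00000272884 (19 and 30 counts before, none after). The distance from ID3 to IL2RA was 1.42 on the log2 scale. For ID1, 3436 genes were of like level, and G0S2, TDO2 and GPR155 had nearly the same log2 fold change (-1.27, -1.27 and -1.28). For G0S2, which encodes an inhibitor of fat breakdown, 66 and 50 counts in untreated cells compared with 25 and 23 after hemin.

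The genes beside the ID loci gave no call. Within 100 kb, 12 annotated genes surround ID1, 5 surround ID2 and 5 surround ID3, of which 2, 1 and 2 could be tested. Around ID1, HM13 had a log2 fold change of 0.17 (edgeR adjusted p = 0.116) and BCL2L1, an inhibitor of apoptosis, one of 0.02 (edgeR adjusted p = 0.857). KIDINS220, beside ID2, had one of 0.07 (edgeR adjusted p = 0.418). ASAP3 and E2F2, beside ID3, did not pass either (edgeR adjusted p = 0.0657 and 0.337). Of these 5 genes, 1 was higher and 1 was lower at an unadjusted p under 0.05 in edgeR. Over all 14458 genes tested, 2133 were higher and 2118 lower at that level. DESeq2 called none of the 5, against 602 higher and 484 lower over all genes.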

How the data were processed

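The authors trimmed 50-base reads with Trimmomatic 0.39 and quantified each library with RSEM 1.3.1 and STAR on the Ensembl 106 annotation of GRCh38. The expected counts deposited by the authors are estimated reads per gene, not normalized, with reads shared by several genes divided between them. The authors' TPM are transcript numbers scaled by effective length and by the library's total. The deposited posterior means, posterior standard deviations and credibility bounds come from RSEM's sampling. Coordinates came from GENCODE 44, which held 99.84% of the gene identifiers.

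In R 4.3.3, edgeR 4.0.16 was run on the rounded expected counts after filterByExpr, with TMM factors and a quasi-likelihood fit whose only term was condition. P-values were adjusted over all genes (Benjamini-Hochberg, threshold 0.05). Intervals are 95%. Counting intervals and exact permutation tests used scipy 1.17.1. On simulated counts of this comparison (14178 genes), 14 of 48 genes changed 1.25-fold, 29 of 49 changed 1.5-fold, 41 of 48 changed 2-fold and 43 of 49 changed 4-fold were called, as were 3 of 13984 unchanged genes.

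The fit was repeated with RLE factors or the library size alone, with other count filters, with a replicate block and with any single library omitted. Other tools were DESeq2 1.42.0, limma 3.58.1 on log2(TPM + 1) and log2(TPM + 0.1), and edgeR on posterior mean counts. DESeq2 with filtering set for 0.05 and limma with a mean-variance trend were added after the values were seen. Replicate numbers do not pair the libraries by any label.

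The members and all lists were chosen with earlier results of these data known, and the lists were written from general knowledge. The text names the 10 members, ID4, up to 3 genes called in each direction per list, GATA1, GATA2 and SSBP2 to SSBP4, the 3 genes most like ID3 and ID1, and called neighbours of the ID genes. TAL2, NHLH2, LMO1, LMO4, LDB2, FLI1, ERG, ID2-AS1, the named markers of other cell types and the uncalled neighbours were named outside this rule, after their values were seen. A gene that the rule names is not reported here. BMAL1 and BMAL2 were not found by symbol.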

Additional observations from a re-analysis of the deposited data

How the results depend on the processing

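Over all genes, 1012 were called higher and 1033 lower. Library size only gave 729 and 1358, and no count filter 1464 and 1321. DESeq2 gave 602 and 484 (589 and 479 with filtering set for 0.05), limma on log2(TPM + 1) 0 and 0, on log2(TPM + 0.1) 0 and 2, and limma with a mean-variance trend 14 and 33. With 1 library left out the counts ran from 469 to 934 higher and from 512 to 884 lower. Such fits take the spread of the lone library to be that of the remaining condition.

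Of the 10 genes, 2 were called higher. With library size only, DESeq2 under both settings and the replicate block it was 1, and with limma 0 throughout. With a library left out it was 0 or 1. Of the 2 called lower, 1 stayed with DESeq2 at its defaults, with limma on log2(TPM + 0.1) and with the trend, and 0 with limma on log2(TPM + 1). With a library left out it was 1 or 2. DESeq2 with its defaults gave ID3 a log2 fold change of -5.39 but no adjusted p, so ID3 has no value there.

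By gene, limma gave ID1 -1.18 on log2(TPM + 1) (adjusted p = 0.176, or 0.0755 with the trend) and -1.31 on log2(TPM + 0.1) (0.188), and ID3 -2.97 on log2(TPM + 1) (0.0504). With a library left out ID1 ran from -1.41 to -1.12, LYL1 from 0.18 to 0.21 and LMO2 from 0.28 to 0.49. LYL1 was 0.15 with library size only, 0.20 with DESeq2 in both settings, 0.19 with the replicate block and 0.16 with limma. LMO2 was 0.37 with limma. TCF3 passed at 0.16 with no count filter and at 0.15 with posterior mean counts. The sign turned for genes near 0. On log2(TPM + 1), with and without the trend, and on log2(TPM + 0.1), TCF4 was -0.063 and -0.064, TAL1 0.030 and 0.031, LDB1 -0.046 and -0.047, and SSBP3 -0.083 and -0.084. LDB1 was -0.037 with library size only. With a library left out LDB1 ran from -0.044 to 0.055, GATA1 from -0.0021 to 0.085 and SSBP2 from -0.0017 to 0.39.

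The replicate numbers were shared between conditions by number only, and deviations of equally numbered libraries correlated at 0.0221 over 9667 genes, so the block was not used as a pairing. With it 855 genes were higher and 886 lower, and among the 10 genes LYL1 alone lost its call. In the lists, DESeq2 left 0 of 3 BMP and SMAD genes lower, 2 of 4 erythroid targets lower, 3 of 6 other helix-loop-helix genes lower and 0 in the TAL and LYL class higher, and at its defaults 1 of 2 ID genes lower. Library size only and the block also gave 0 in the TAL and LYL class higher, and the block gave 1 BMP and SMAD gene lower. The limma fits gave 0 in every list except 1 ID gene lower on log2(TPM + 0.1) and with the trend. No count filter and posterior mean counts gave 1 E protein higher. With a library left out, the lists had from 0 to 6 calls in a direction. The cause of these shifts was not tested.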
